A study of Mus musculus with 48 samples.

Results

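The 10 genes described here are the chemokines Cxcl1, Cxcl2, Cxcl5, Ccl2 and Ccl7, the cytokines Csf1 and Lif, and the NF-κB pathway genes Nfkbia, Tnfaip3 and Relb. They were taken by symbol, and each symbol matched 1 Ensembl gene, so the set is 10 of the 50600 genes listed in the counts. All 10 passed the filter on low counts, which left 13889 genes for testing. Ccl7 had the fewest counts, with 10 to 58 counts per library, and Cxcl2 had 14 to 355. The highest counts of a library were 23087 for Tnfaip3, 21850 for Cxcl1 and 18317 for Nfkbia.

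The libraries come from mPDAC cells, a mouse cell line of pancreatic ductal adenocarcinoma, either non-treated (NT, labelled Control) or treated for 48 h with N6L, a synthetic pseudopeptide that binds nucleolin and was used at 50 µM. The labels give all samples the genetic background FVB/N x C57BL6 and an age of 8 weeks, and name no other allele or agent. The cells were treated with emetine before lysis, nuclei and mitochondria were removed, and poly(A) RNA was sequenced from the cytoplasm and from the pooled polysomal fractions of a sucrose gradient loaded with the same lysate. NT cultures 1, 2 and 4 and N6L cultures 1, 2 and 3 gave 12 libraries of 19519911 to 44972333 counts, in 4 groups of 3. All of them are cultures of a single line, and no source used here says how far apart they were grown, so the tests measure the spread between these cultures, which may be technical in part.

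Levels are given as CPM, the count per 1000000 counts of a library after TMM scaling, relative to the other mRNAs of the same library. A change shared by all mRNAs does not appear in them, and in bulk RNA fewer cells that express a gene cannot be told apart from less of its mRNA per cell. For N6L culture 2, 3 of the 4 cytoplasmic technical replicates carry a description that names culture 1, against their titles. The titles were followed, and the counts of these 3 stood near the remaining technical replicate of culture 2 (chi-square over its degrees of freedom 1.01 to 1.04) and far from one of culture 1 (11.2 to 11.4). NT culture 4 stood apart for the 10 genes, whose log2 levels lay on average 0.31 below the mean of the 3 NT cultures in the cytoplasm (a deviation of -0.31) and 0.35 below it in the polysomes (-0.35). Over all genes, the log2 deviations from the group mean were widest in the polysomes of N6L culture 3 (SD 0.42, against 0.17 to 0.35 in the other libraries). Among the cytoplasmic libraries they were widest in NT culture 4 (SD 0.35), as they were among the NT polysomes (SD 0.32). This culture thus deviated over all genes and not only for the 10. Results are therefore also given without single cultures.

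Epithelial and ductal markers were present. Of 10 such genes 8 passed the filter, with keratin 18 (Krt18) the most abundant at a mean of 3464 CPM, and their summed level was 6565 to 10797 CPM per library. Epcam and Cldn4 were under 1 CPM, and Krt7 fell while Sox9 rose under N6L in the cytoplasm (log2 change -0.97 and 1.09, FDR 0.00829 and 0.0023). Markers of other cells were scarce: all 10 fibroblast genes and all 6 endothelial genes had means under 1 CPM, the most abundant being Col1a1 at 0.673 CPM and Cdh5 at 0.337 CPM, and Lum had 0 counts. Pecam1, an endothelial gene, rose from 0.0926 to 0.361 CPM in the cytoplasm (FDR 0.0352, 100 counts in all 12 libraries), and its part in the results was not tested. Of 10 leukocyte and macrophage genes 7 were under 1 CPM, Ptprc and Adgre1 among them, and Cd14 was the most abundant at 73.1 CPM, with a log2 change of 0.03 in the cytoplasm and 0.34 in the polysomes (FDR 0.917 and 0.263). The summed level of the leukocyte list was 57.2 to 70.6 CPM in the cytoplasm and 70.5 to 122 CPM in the polysomes, highest in the polysomes of N6L cultures 2 and 3, and its part in the polysomal results was not tested. The acinar genes Cpa1, Ptf1a and Pnlip had 0 counts, and Cela1 stood at 44.9 CPM. The summed level of the acinar list was 27.8 to 44.6 CPM in the cytoplasm and 40.4 to 82.8 CPM in the polysomes. It too was highest in the polysomes of N6L cultures 2 and 3 (63.8 and 82.8 CPM), and its part in the polysomal results was not tested.

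NF-κB is a family of dimeric transcription factors held in the cytoplasm by IκB proteins until an IκB kinase marks these for degradation. Once in the nucleus it switches on chemokines and cytokines, and with them its own inhibitors, so that Nfkbia (IκBα) and Tnfaip3 (A20) close a negative feedback loop. The chemokines made this way by tumor cells draw neutrophils (Cxcl1, Cxcl2 and Cxcl5, through the receptor Cxcr2) and monocytes (Ccl2 and Ccl7, through Ccr2), Csf1 sustains macrophages, and Lif signals through gp130 and Stat3 and is known for its role in pancreatic cancer.

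All 10 genes are protein-coding, and the chemokine genes lie in a CXC cluster and a CC cluster of the mouse genome (GRCm38, the same build as mm10). Cxcl1 (ENSMUSG00000029380) spans chromosome 5 from 90891241 to 90893115, Cxcl2 (ENSMUSG00000058427) follows after 10755 bases, from 90903871 to 90905938, and Cxcl5 (ENSMUSG00000029371) lies on the same strand from 90759360 to 90761624. Ccl2 (ENSMUSG00000035385) spans chromosome 11 from 82035571 to 82037453, and Ccl7 (ENSMUSG00000035373), from 82045712 to 82047525, begins 8258 bases further on. Lif (ENSMUSG00000034394) is also on chromosome 11, from 4257557 to 4272514. Csf1 (ENSMUSG00000014599) spans chromosome 3 from 107741048 to 107760469, Nfkbia (ENSMUSG00000021025) chromosome 12 from 55489410 to 55492647, Tnfaip3 (ENSMUSG00000019850) chromosome 10 from 19000910 to 19015657 and Relb (ENSMUSG00000002983) chromosome 7 from 19606217 to 19629438. Only Ccl2 overlaps another annotated gene, Gm17268 on the opposite strand, which had 0 counts. Cxcl1 and Cxcl2 are close paralogs, and how reads with several matches were counted is not given in the sources used here. Counts could be shared between them to an unknown extent.

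Promoters of 6 of the genes, 250 bases before to 50 after the start, were in the RefSeq table (GRCm38.p6), those of Cxcl1, Cxcl2, Csf1, Lif, Nfkbia and Tnfaip3, while Cxcl5, Ccl2, Ccl7 and Relb were not. The NF-κB consensus GGGRNNYYCC was searched on both strands, with overlapping matches counted once. In it R stands for A or G, Y for C or T and N for any base, and a match may read as the reverse complement. The consensus was present in all 6 promoters, against 9.55% of the 27025 genes with a promoter in the table. The genes were picked as chemokines, cytokines and genes of this pathway, so this is a description only. The stretches around the matches are printed because they are the element that the pathway's name refers to and that these 6 genes share. Each line shows 60 bases in the direction of the gene, with the match in capitals.
Cxcl1 (chr5:90891149-90891208, plus strand): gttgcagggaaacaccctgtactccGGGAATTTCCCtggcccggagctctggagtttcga
Cxcl2 (chr5:90903777-90903836, plus strand): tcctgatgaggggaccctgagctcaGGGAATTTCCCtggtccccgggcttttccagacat
Csf1 (chr3:107760589-107760648, minus strand): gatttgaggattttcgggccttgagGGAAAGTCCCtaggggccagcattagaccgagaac
Lif (chr11:4257365-4257424, plus strand): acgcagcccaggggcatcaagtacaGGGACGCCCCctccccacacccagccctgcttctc
Nfkbia (chr12:55492642-55492701, minus strand): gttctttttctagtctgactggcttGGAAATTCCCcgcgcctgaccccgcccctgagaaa
Tnfaip3 upstream site (chr10:19015501-19015560, minus strand): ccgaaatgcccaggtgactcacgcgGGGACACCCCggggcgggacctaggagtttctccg
Tnfaip3 downstream site (chr10:19015388-19015447, minus strand): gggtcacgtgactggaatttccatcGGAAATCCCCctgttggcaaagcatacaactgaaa
Cxcl1 and Cxcl2 carried the same letters in capitals, 71 and 97 bases before their starts in the RefSeq table, from which all these distances are counted. The match lay 154 bases before the start of Csf1, 178 before that of Lif and 29 before that of Nfkbia. Tnfaip3 had 2 matches, 125 and 12 bases before the start, in the first of its 2 promoters in the table and none in the second. The RefSeq starts differ from the outermost starts given above by 4 bases for Cxcl1, 28 for Cxcl2, 11 for Lif and 247 for Tnfaip3, whose matches lie inside the span given above, 122 and 235 bases after its outermost start. The AP-1 motif TGANTCA, searched on both strands, was present in the promoters of Lif and Tnfaip3 and in 8.97% of all genes of the table. These are matches of letters and do not show binding.

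The 3′ untranslated regions were read from GENCODE vM21 transcripts for the AU-rich nonamer TTATTTATT and its core ATTTA on the sense strand, elements by which many cytokine mRNAs are bound and destabilised. Of 9 of the genes, 4 held the nonamer, 4 times in Cxcl2, 2 times in Cxcl1 and in Lif and 1 time in Nfkbia, against 8.14% of the 12075 tested genes that had a 3′ untranslated region to search. The first or only nonamer of each is shown in capitals, with 10 bases on either side.
Cxcl1: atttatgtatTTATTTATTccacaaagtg
Cxcl2: gagagttcacTTATTTATTtatctatgta
Lif: aaaggggcctTTATTTATTatttaaaact
Nfkbia: ggaccacgttTTATTTATTgtgcttttga
The core ATTTA occurred 11 times in Cxcl2, 7 times in Cxcl1 and in Lif and 5 times in Cxcl5, and 22.6% of tested genes had at least 5. It occurred 4 times in Csf1, 2 times in Ccl7 and in Nfkbia, 1 time in Ccl2 and 0 times in Relb. Per kilobase there were 11.8 in Cxcl1, 7.36 in Cxcl2, 4.50 in Cxcl5 and 2.20 in Lif, whose region has 3180 bases. The median of tested genes was 1.29 per kilobase.

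The first question was whether the cytoplasmic level of these mRNAs differed between N6L-treated and NT cells. It was higher for 7 of the 10 at an FDR under 0.05, by the quasi-likelihood F-test of edgeR with p-values adjusted over all genes tested by the method of Benjamini and Hochberg, namely Cxcl1, Cxcl2, Ccl2, Csf1, Lif, Nfkbia and Tnfaip3, and lower for 0. Over all genes tested, 14.5% were higher and 13.8% lower by the same rule. The median log2 change of the 10 genes was 0.76, against 0.04 for all genes. The 3 N6L cultures lay above the 3 NT cultures for 8 of the 10, the 7 named and Cxcl5, and this was so for 29.3% of all genes. Without N6L culture 2, from both fractions, only Lif and Tnfaip3 passed, 2 genes in place of 7. The calls over all genes, in both directions, fell from 28.3% to 9.24%, and the log2 change of the other 5 was 0.96 for Cxcl1, 1.53 for Cxcl2, 0.58 for Ccl2, 0.57 for Csf1 and 0.79 for Nfkbia. Without any other single culture 6 or 7 of the 10 passed. Under scaling by library totals the all-gene median was 0.19 and the share of called genes that were higher was 65.5%, against 51.2% with TMM scaling, and the same 7 of the 10 were called. With offsets for transcript length and GC content 40.7% of the called genes were higher, and Ccl7 passed as well, so that 8 of the 10 did.

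**Figure D1:**
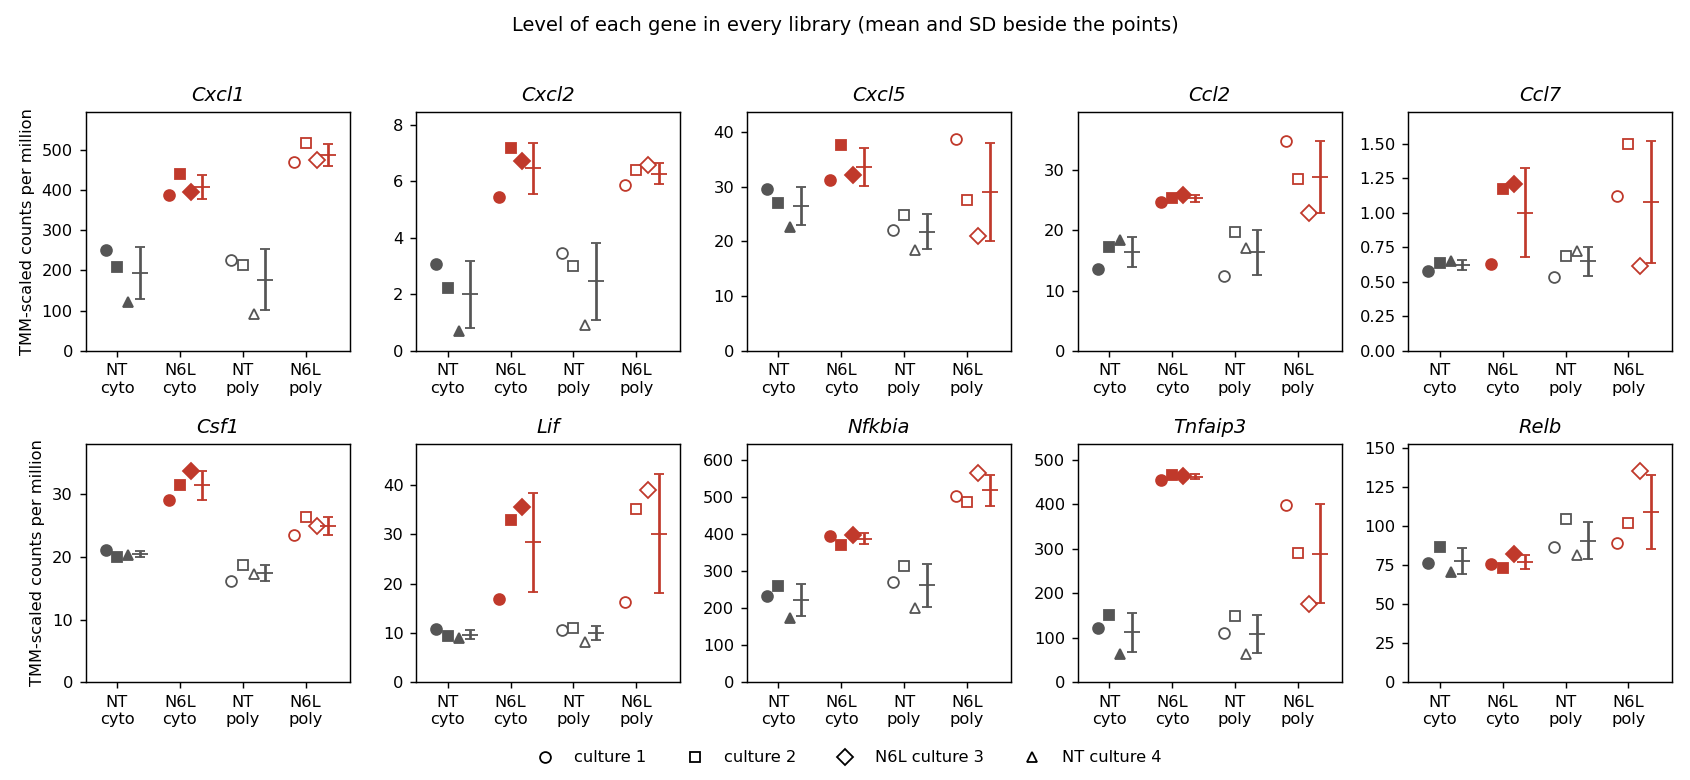
TMM-scaled CPM (vertical axes, starting at 0) of each gene in every library, with NT in grey and N6L in red, cytoplasm as filled and polysomes as open symbols, the symbol's shape giving the culture, and the mean ± SD of the 3 cultures beside the points. Tnfaip3 in the cytoplasm sits between 455 and 466 CPM in the N6L cultures and between 63.7 and 151 CPM in the NT cultures, and Relb overlaps between treatments in both fractions.

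The CXC chemokines that attract neutrophils are given first. Cxcl1, the highest of the 5 chemokines per kilobase of exon, stood at 251, 209 and 122 CPM in the cytoplasm of NT cultures 1, 2 and 4 and at 387, 441 and 396 CPM in that of N6L cultures 1, 2 and 3. In the polysomes it stood at 226, 215 and 90.4 CPM in the NT cultures and at 469, 519 and 474 CPM in the N6L cultures. The N6L cultures were close to each other and all above the NT cultures in both fractions, among which culture 4 was the lowest. The cytoplasmic level rose 2.10-fold (log2 change 1.07, standard error 0.297, FDR 0.0178) and the polysomal level 2.75-fold (log2 change 1.46, standard error 0.300, FDR 0.0102).

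Cxcl2, the paralog of Cxcl1, was scarce. It stood at 3.05, 2.22 and 0.701 CPM in the cytoplasm of NT cultures 1, 2 and 4 and at 5.45, 7.17 and 6.73 CPM in that of N6L cultures 1, 2 and 3. In the polysomes the values were 3.45, 3.01 and 0.904 CPM in the NT cultures and 5.85, 6.38 and 6.58 CPM in the N6L cultures. The groups did not overlap in either fraction, and NT culture 4 was again the lowest. The cytoplasmic level rose 3.16-fold (log2 change 1.66, standard error 0.438, FDR 0.0145). The polysomal log2 change of 1.38 (standard error 0.436) missed the limit, with an FDR of 0.0607. It passed in 5 of 16 alternatives, among them DESeq2 and leaving out NT culture 4, whose omission lowered the polysomal log2 change to 0.97. Without any other single culture it did not pass, and the FDR reached 0.205 without N6L culture 2.

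Cxcl5, the third of these ligands of Cxcr2, had 29.6, 27.1 and 22.7 CPM in the cytoplasm of NT cultures 1, 2 and 4 and 31.2, 37.7 and 32.2 CPM in that of N6L cultures 1, 2 and 3. The groups lay apart by little, and the log2 change of 0.35 (standard error 0.209, FDR 0.216) did not pass. In the polysomes N6L culture 3, at 21.0 CPM, fell among the NT cultures at 18.4 to 24.8 CPM, and the log2 change was 0.42 (FDR 0.221). Cxcl3, a further ligand of Cxcr2 encoded in the same cluster, had a log2 change of 0.36 in the cytoplasm (FDR 0.5), with 12.6 CPM in N6L culture 1 and 5.73 and 4.64 CPM in the other N6L cultures.

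The CC chemokines attract monocytes, and Ccl2 is the main one of them. It had 13.6, 17.3 and 18.4 CPM in the cytoplasm of NT cultures 1, 2 and 4 and 24.8, 25.3 and 25.9 CPM in that of N6L cultures 1, 2 and 3. In the polysomes it had 12.4, 19.7 and 17.0 CPM in the NT cultures and 34.9, 28.6 and 22.9 CPM in the N6L cultures. No NT value reached an N6L value in either fraction. Ccl2 rose 1.54-fold in the cytoplasm (log2 change 0.63, standard error 0.201, FDR 0.0329) and 1.76-fold in the polysomes (log2 change 0.81, standard error 0.202, FDR 0.0239). These were among the calls nearest the limit. In the cytoplasm the call was lost without NT culture 1, 2 or 4 or without N6L culture 2, where the log2 change was 0.50 to 0.69 and the FDR at most 0.133, and with technical replicate a alone. The polysomal call was lost without NT culture 1 or 4, without N6L culture 1 or 2, where the log2 change was 0.65 to 0.86, and in the fit of only the polysomes.

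Ccl7, the neighbor of Ccl2 on chromosome 11 and a ligand of the same receptor, was near the limit of detection, at 0.580, 0.635 and 0.651 CPM in the cytoplasm of NT cultures 1, 2 and 4. The N6L cultures 1, 2 and 3 had 0.627, 1.17 and 1.20 CPM, so that culture 1 lay among the NT values. The log2 change of 0.72 in the cytoplasm (standard error 0.361, FDR 0.145) did not pass, and the polysomal one of 0.72 (FDR 0.217) did not either. Ccl7 passed in the cytoplasm only with the offsets for length and GC content (log2 change 0.99, FDR 0.0306).

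The cytokine genes both rose in both fractions. Csf1, the main growth factor of macrophages, stood at 21.0, 19.97 and 20.4 CPM in the cytoplasm of NT cultures 1, 2 and 4 and at 29.1, 31.5 and 33.7 CPM in that of N6L cultures 1, 2 and 3. In the polysomes it had 16.2, 18.7 and 17.4 CPM in the NT cultures and 23.5, 26.4 and 24.9 CPM in the N6L cultures. The groups lay apart in both fractions, and NT culture 4 did not stand out for this gene. The rise was 1.54-fold in the cytoplasm (log2 change 0.62, standard error 0.138, FDR 0.00673) and 1.43-fold in the polysomes (log2 change 0.52, standard error 0.138, FDR 0.0327). The polysomal call was lost in 7 of 16 alternatives, among them leaving out NT culture 1, 2 or 4 or N6L culture 2, where the log2 change was 0.47 to 0.57.

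Lif had 10.8, 9.31 and 8.91 CPM in the cytoplasm of NT cultures 1, 2 and 4 and 16.9, 32.8 and 35.5 CPM in that of N6L cultures 1, 2 and 3. The polysomal values were 10.6, 11.1 and 8.25 CPM in the NT cultures and 16.3, 35.1 and 39.0 CPM in the N6L cultures. The NT cultures were close together, while N6L culture 1 lay between them and the other N6L cultures, in the cytoplasm and in the polysomes alike. Lif rose 2.94-fold in the cytoplasm (log2 change 1.55, standard error 0.313, FDR 0.00436) and 3.02-fold in the polysomes (log2 change 1.60, standard error 0.314, FDR 0.00821). Ranked by the size of the increase, it was number 262 of the 13889 genes in the cytoplasm and number 165 in the polysomes.

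Among the feedback genes Nfkbia, which encodes the inhibitor IκBα, had 232, 259 and 173 CPM in the cytoplasm of NT cultures 1, 2 and 4 and 395, 369.8 and 397 CPM in that of N6L cultures 1, 2 and 3. In the polysomes it had 271, 314 and 199 CPM in the NT cultures and 503, 487 and 566 CPM in the N6L cultures. All N6L values were above all NT values of the same fraction. Nfkbia rose 1.75-fold in the cytoplasm (log2 change 0.80, standard error 0.184, FDR 0.00766) and 1.98-fold in the polysomes (log2 change 0.99, standard error 0.185, FDR 0.00648).

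In the main fit, of all 12 libraries with TMM scaling, Tnfaip3, which encodes the ubiquitin-editing enzyme A20, had the largest cytoplasmic increase of the 10. It was number 106 of the 13889 genes by that measure. The log2 change of Cxcl2 was larger without NT culture 1 (2.125 against 2.101) and with the offsets for length and GC content (1.724 against 1.716). Tnfaip3 stood at 122, 151 and 63.7 CPM in the cytoplasm of NT cultures 1, 2 and 4 and at 455, 466 and 463 CPM in that of N6L cultures 1, 2 and 3. In the polysomes the NT values were 110.4, 149 and 63.4 CPM and the N6L values 398, 291 and 176 CPM. The N6L cultures thus lay close together in the cytoplasm and far apart in the polysomes. There culture 3, whose polysomal library deviated most over all genes, came near the highest NT culture. The rise was 4.11-fold in the cytoplasm (log2 change 2.04, standard error 0.353, FDR 0.00222) and 2.68-fold in the polysomes (log2 change 1.42, standard error 0.347, FDR 0.0224). The polysomal call was lost without NT culture 1, N6L culture 1 or N6L culture 2, where the log2 change was 1.44, 1.12 and 1.41.

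Relb, which encodes the NF-κB subunit that pairs with p52 and whose gene is itself a known NF-κB target, did not share this pattern. It had 76.3, 86.2 and 70.2 CPM in the cytoplasm of NT cultures 1, 2 and 4 and 75.3, 73.1 and 81.7 CPM in that of N6L cultures 1, 2 and 3. The polysomal values were 86.3, 104 and 81.2 CPM in the NT cultures and 89.2, 102 and 135 CPM in the N6L cultures. The treatments overlapped in both fractions. The log2 change was -0.02 in the cytoplasm (standard error 0.170, FDR 0.955), with a sign that turned under scaling by library totals, and 0.26 in the polysomes (standard error 0.170, FDR 0.346).

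In the polysomes 6 of the 10 genes were higher under N6L at an FDR under 0.05, the 7 of the cytoplasm without Cxcl2, and 0 were lower. Over all genes tested 6.01% were higher and 3.66% lower. The N6L cultures lay above the NT cultures for 7 of the 10, against 13.7% of all genes. The median log2 change of the 10 was 0.90, against a median of 0.0008 for all genes, and it was above 0 for all 10. The same 6 genes, Cxcl1, Ccl2, Csf1, Lif, Nfkbia and Tnfaip3, were called in both fractions, as were 4.22% of all genes. The number of polysomal calls changed when single cultures were left out. Without N6L culture 2 none of the 10 passed, the lowest FDR being 0.056 for Nfkbia, and without NT culture 1 only Cxcl1 did. The calls over all genes, in both directions, fell too, from 9.67% to 1.04% and 1.44%, and without N6L culture 2 the log2 change was 1.41 for Cxcl1, 1.47 for Lif and 1.03 for Nfkbia. Without any other culture 4 to 6 passed, and the fit of only the NT and N6L polysomes gave 4, Cxcl1, Lif, Nfkbia and Tnfaip3. Of all genes called in the polysomes 62.2% were higher under N6L, 77.6% with scaling by library totals and 45.3% with the offsets, and 6 and 7 of the 10 genes were called with these settings.

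**Figure D2:**
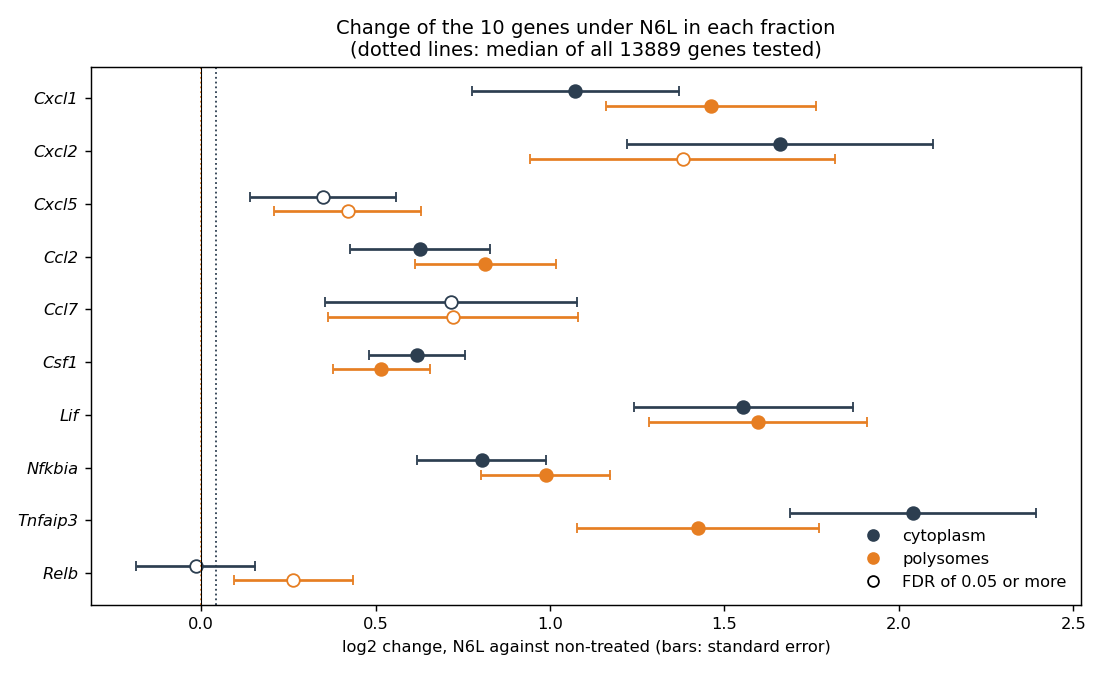
Log2 change of each gene between N6L and NT (horizontal axis) in the cytoplasm (dark) and in the polysomes (orange), with the standard error as bars, filled where the FDR is under 0.05, and dotted lines at the medians of all genes tested. Points for 9 of the 10 genes lie right of 0 in both fractions, Tnfaip3 in the cytoplasm farthest at 2.04, and Relb lies at -0.02 and 0.26.

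**Figure D3:**
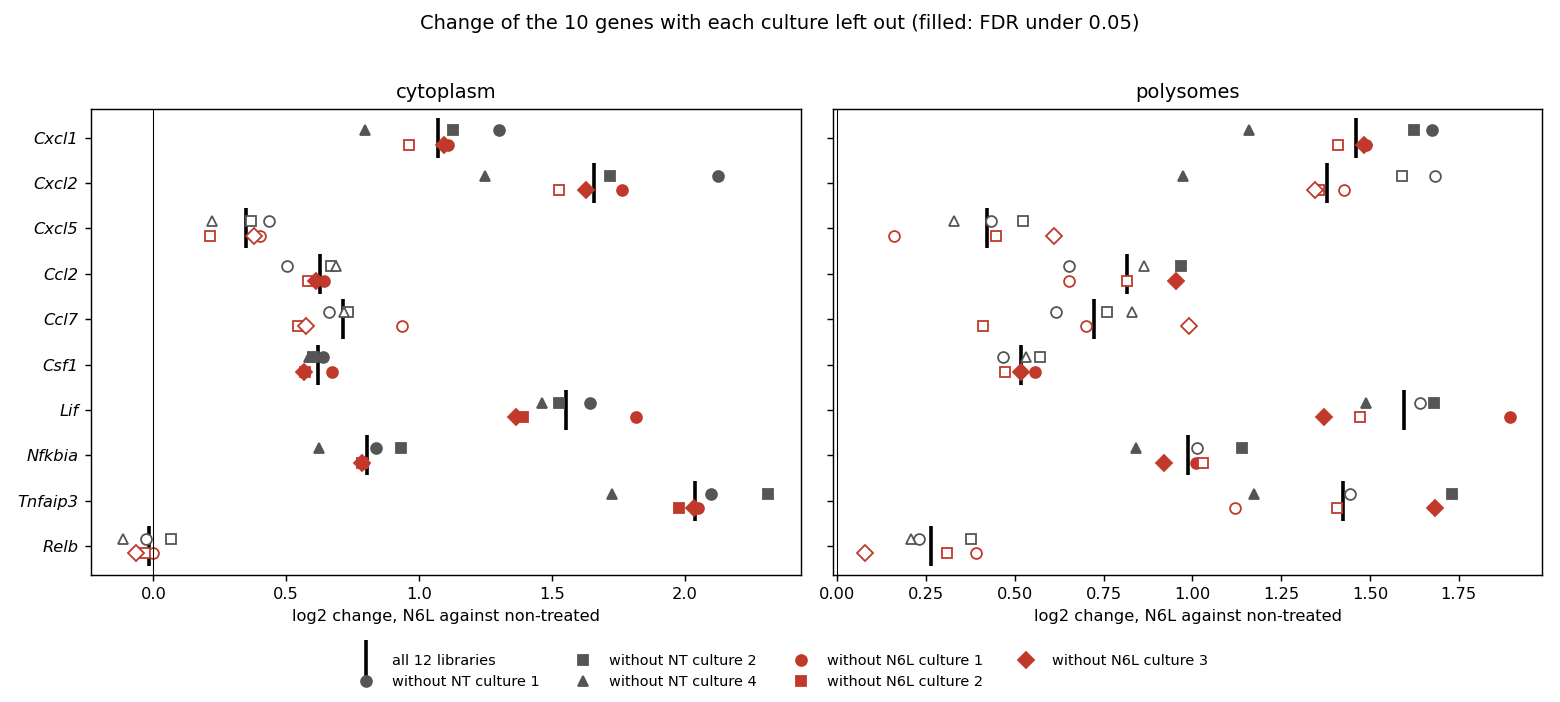
Log2 change between N6L and NT (horizontal axes) in the cytoplasm and in the polysomes with all 12 libraries (black bars) and with each culture left out from both fractions, NT cultures in grey and N6L cultures in red, filled where the FDR is under 0.05. The red squares, without N6L culture 2, are filled for Lif and Tnfaip3 in the cytoplasm and open for all 10 genes in the polysomes, and the grey triangles, without NT culture 4, lie farthest left for Cxcl1, Cxcl2, Nfkbia and Tnfaip3 in the cytoplasm.

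The lower level of NT culture 4 fell on part of the genes. Its cytoplasmic level was below the mean of the NT cultures by a log2 difference of -1.20 for Cxcl2, -0.73 for Tnfaip3, -0.61 for Cxcl1 and -0.33 for Nfkbia, and above it by 0.18 for Ccl2. Without this culture the cytoplasmic log2 change was 0.80 for Cxcl1, 1.25 for Cxcl2, 0.62 for Nfkbia and 1.73 for Tnfaip3, and all 4 passed the limit. What set this culture apart was not tested.

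The second question was how the polysomal level of each mRNA compared with its cytoplasmic level, and whether N6L altered that relation. Both levels are relative to the other mRNAs of their library, so they do not give the share of an mRNA on polysomes. The study reports a strong decrease of the polysome peaks under N6L, and a loss common to all mRNAs does not appear here. The polysome-to-cytoplasm ratio compares the level in both libraries of a culture, and the translational index (TI) is the difference of that log2 ratio between treatments, N6L minus NT. In NT cells 0 of the 10 genes differed between polysomes and cytoplasm, and 0.209% of all genes did. In N6L cells 1 of the 10 did, Relb, against 39% of all genes. Of the genes that differed 47.3% were higher in the polysomes, 36.1% with scaling by library totals and 57.7% with the offsets, and with either of these Csf1 was called in place of Relb. The polysomal level of Relb exceeded the cytoplasmic level by a log2 ratio of 0.24, 0.48 and 0.73 in N6L cultures 1, 2 and 3, and by 0.18, 0.27 and 0.21 in NT cultures 1, 2 and 4. The log2 difference in N6L cells was 0.50 (standard error 0.171, FDR 0.0319).

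With the culture as a replicate block, so that each lysate is compared with itself, 4 of the 10 genes differed between polysomes and cytoplasm of N6L cells in place of 1, and 53.7% of all genes did. Relb (log2 difference 0.48, FDR 0.00747) and Nfkbia (0.42, FDR 0.0051) had a higher relative level in the polysomes. Tnfaip3 (-0.75, FDR 0.00956) and Csf1 (-0.33, FDR 0.0342) had a lower one. With offsets for transcript length and GC content, with or without the block, Csf1 was the 1 gene called, and with both the log2 difference was -0.08 for Nfkbia (FDR 0.419), 0.20 for Relb (FDR 0.0559) and -0.26 for Tnfaip3 (FDR 0.0867). With the offsets alone it was 0.20 for Relb and -0.24 for Tnfaip3. Which genes pass in this comparison thus depended on the model. Without N6L culture 2, N6L culture 3 or NT culture 1, 0 of the 10 genes passed in the fit with no block, and 8.22%, 11.7% and 33.4% of all genes did.

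**Figure D4:**
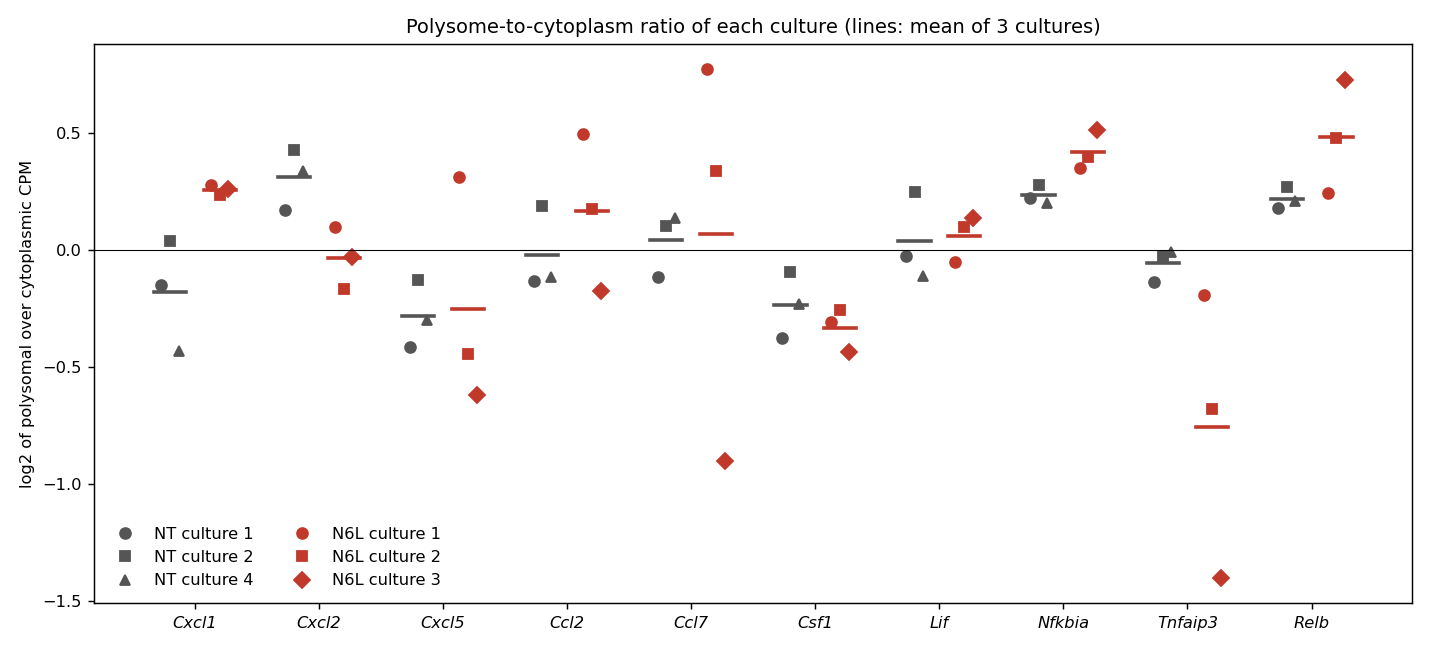
Log2 of the polysomal over the cytoplasmic level (vertical axis) of each gene in the 3 NT cultures (grey) and the 3 N6L cultures (red), with the mean of each treatment as a line and the symbol's shape giving the culture. Tnfaip3 reaches -1.40 in N6L culture 3 while its NT cultures stay between -0.14 and -0.01, and the Nfkbia ratios are above 0 in all 6 cultures.

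The TI of none of the 10 genes passed the limit, and the same held for 0% of all genes, that is 0 genes. In edgeR's test 1074 genes and 0 of the 10 had an unadjusted p under 0.05, and DESeq2 called 0 genes. With no filter on low counts 114 of 25915 genes were called, and without N6L culture 1 there was 1, none of them among the 10. The TI was lowest for Tnfaip3, at -0.62 (standard error 0.481, FDR 0.590). Its log2 ratios were -0.14, -0.02 and -0.01 in NT cultures 1, 2 and 4 and -0.19, -0.68 and -1.40 in N6L cultures 1, 2 and 3, so that all N6L ratios were below all NT ratios but were spread widely among themselves. For Cxcl1, which had the highest TI in the main fit at 0.39 (standard error 0.415, FDR 0.677), the N6L ratios were 0.28, 0.23 and 0.26 and the NT ratios -0.15, 0.04 and -0.43. The TI of Ccl7 was higher without N6L culture 3 (0.418 against 0.388) and that of Relb without N6L culture 1 (0.390 against 0.378). With technical replicate a alone Ccl7 (0.517) and Ccl2 (0.485) were above Cxcl1 (0.432). With the replicate block the TI was -0.70 for Tnfaip3 (FDR 0.208) and 0.44 for Cxcl1 (FDR 0.199), and 0 genes passed. The standard errors of the TI, 0.415 for Cxcl1 and 0.481 for Tnfaip3, were about as large as the indices themselves.

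Levels of different genes were compared per kilobase of annotated exon. In NT cytoplasm Nfkbia was highest, at 138 ± 27.3 CPM per kb (SD, n = 3), and its range overlapped that of Cxcl1, at 103 ± 35.0. Far below came Relb at 19.96 ± 2.08, Tnfaip3 at 15.5 ± 6.16, Ccl2 at 14.4 ± 2.24 and Cxcl5 at 14.2 ± 1.87 CPM per kb, each overlapping the next in the order. Csf1 at 3.87, Lif at 2.22, Cxcl2 at 0.964 and Ccl7 at 0.777 CPM per kb closed the order, and only the last pair overlapped. In N6L cytoplasm Tnfaip3, at 63.9 ± 0.786 CPM per kb, followed Nfkbia and Cxcl1 and was clear of its neighbors in the order. Ccl2 at 22.3 ± 0.491 CPM per kb stood above Relb at 19.7 ± 1.15 without overlap, the reverse of their order in NT cytoplasm. Lif at 6.53 and Csf1 at 5.95 CPM per kb exchanged places with overlapping ranges, and Nfkbia at 241 ± 9.38 and Cxcl1 at 218 ± 15.5 CPM per kb again overlapped at the top.

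Around these genes the wider pathway was described by lists of related genes, whose counts are to be read against the 14.5% of genes higher and 13.8% lower in the cytoplasm, and 6.01% higher and 3.66% lower in the polysomes. Of 14 other CXC and related chemokines 8 were tested, 2 were higher in the cytoplasm and 0 lower, with a median log2 change of 0.20. Those were Cxcl16, from 21.5 ± 1.42 to 38.0 ± 3.60 CPM (log2 change 0.82, FDR 0.00414), and Cxcl10, an interferon-induced chemokine, from 1.89 ± 0.534 to 3.51 ± 0.708 CPM (0.86, FDR 0.0416). In the polysomes 2 were higher and 0 lower, Cxcl16 (0.95, FDR 0.00463) and Cxcl12 (1.44, FDR 0.0370). Cxcl10 did not pass there (0.80, FDR 0.104). Of 16 other CC chemokines 4 were tested, and Ccl28, a mucosal chemokine, rose in the cytoplasm (log2 change 1.39, FDR 0.00316) and in the polysomes (0.95, FDR 0.0435). Ccl20, a ligand of Ccr6, at 75.2 ± 31.2 CPM in NT cytoplasm and 95.9 ± 2.17 CPM in N6L cytoplasm, had a log2 change of 0.35 that did not pass (FDR 0.472).

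Receptors for these ligands were scarce in the cells themselves. Of 23 chemokine receptor genes 2 passed the filter. Cxcr2 had 18 counts in all 12 libraries together and Ccr2 had 0. The limit that a count of 0 allows, 3 counts, corresponds to 0.154 CPM in the smallest library before TMM scaling (TMM factor 0.966). Cx3cr1 fell from 0.649 ± 0.199 to 0.206 ± 0.0271 CPM in the cytoplasm (FDR 0.0106), and the decoy receptor Ackr3 had a log2 change of 0.39 in the cytoplasm (FDR 0.106) and rose by 0.73 in the polysomes (FDR 0.0218). Csf1r, the receptor of Csf1, was at 1.43 ± 0.238 CPM in NT and 0.881 ± 0.224 CPM in N6L cytoplasm (FDR 0.125).

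The family of Lif was the list with the highest median log2 change in the cytoplasm, 0.98 over 11 tested of 14 genes, with 6 higher and 0 lower, and in the polysomes 4 were higher. Osmr, the receptor chain of oncostatin M, rose from 3.15 ± 0.298 to 10.8 ± 4.41 CPM in the cytoplasm (log2 change 1.77, FDR 0.00222), and Il11, a cytokine of this family, from 0.514 ± 0.189 to 1.36 ± 0.123 CPM (1.36, FDR 0.00619). Il6st, the shared signalling chain gp130, rose from 17.1 ± 1.13 to 31.3 ± 3.59 CPM (0.87, FDR 0.00534). Stat3, the transcription factor below it, rose by a log2 of 1.27 (FDR 0.00203), and Socs3, the feedback inhibitor that Stat3 induces, by 0.85 (FDR 0.0131). Lifr, the receptor chain for Lif, had a log2 change of 1.05 that missed the limit (FDR 0.0527), and Il6 was at 0.0811 CPM in NT and 0.326 CPM in N6L cytoplasm (FDR 0.0849). Stat3, Socs3 and Il6ra rose in the polysomes too, by 0.87, 1.16 and 0.74.

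Of 11 other colony-stimulating factors and receptors 7 were tested, and 3 were lower and 0 higher in the cytoplasm, with a median log2 change of -0.71, while in the polysomes 1 was lower and 0 higher, with a median of 0.12. Il34, the second ligand of Csf1r, fell from 15.9 ± 1.27 to 8.34 ± 0.848 CPM (log2 change -0.93, FDR 0.00826), and Csf2ra fell by 1.01 on the log2 scale (FDR 0.0239). Csf2, known as GM-CSF, stayed at 18.6 ± 1.84 CPM in NT and 17.8 ± 5.18 CPM in N6L cytoplasm (FDR 0.897), and Csf3 was under 1 CPM in all groups.

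Among the NF-κB subunits other than Relb, 1 of 4 was higher and 0 lower in the polysomes. In the cytoplasm 2 of 4 were higher and 0 lower. Rela, the p65 subunit of the classical dimer, rose from 163 ± 9.49 to 242 ± 17.7 CPM (log2 change 0.57, FDR 0.0245), and Rel from 14.0 ± 3.39 to 36.8 ± 6.77 CPM (1.40, FDR 0.00548). Nfkb1, the precursor of p50, had a log2 change of 0.51 (FDR 0.0713), and Nfkb2, the precursor of the p52 that pairs with RelB, one of -0.30 (FDR 0.268). Among 6 other IκB proteins and Bcl3, 0 were higher in the cytoplasm and 2 lower, unlike Nfkbia. Nfkbib, which encodes IκBβ, fell from 40.1 ± 1.99 to 24.5 ± 2.85 CPM (-0.71, FDR 0.0133) and Nfkbil1 fell by 0.91 on the log2 scale (FDR 0.0162), while Nfkbie and Nfkbiz had log2 changes of 0.04 and 0.56 (FDR 0.902 and 0.316). In the polysomes Nfkbid and Bcl3 rose, by 2.03 (FDR 0.00541) and 0.73 (FDR 0.0307).

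The IκB kinase genes Chuk, Ikbkb and Ikbkg did not pass in the cytoplasm, with log2 changes of 0.26, 0.48 and -0.06 (FDR 0.516, 0.0673 and 0.814). Of the 29 kinases and adaptors all were tested, 7 were higher and 0 lower in the cytoplasm, with Ripk1, the kinase of the TNF receptor complex, at 1.08 (FDR 0.0119), Traf5 at 0.88 (FDR 0.00403) and Birc3 at 0.80 (FDR 0.0127). Of 14 partners of A20, deubiquitinases and other inhibitors 3 were higher and 1 lower. Zc3h12a, an RNase that degrades cytokine mRNAs, rose from 26.2 ± 5.89 to 64.0 ± 4.23 CPM in the cytoplasm (1.29, FDR 0.00227) and by 1.30 in the polysomes (FDR 0.00463). Tnip2, an A20-binding protein, rose by 0.93 (FDR 0.0107), while Tnip1 and Cyld had log2 changes of 0.14 and 0.43 (FDR 0.569 and 0.198).

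Of 22 upstream ligands and receptors 14 were tested, 2 higher and 1 lower in the cytoplasm. The ligands that classically switch on the pathway were scarce: Tnf stood at 0.447 CPM in NT and 0.534 CPM in N6L cytoplasm (FDR 0.544), Il1a had 12 counts and Il1b 0 counts in all 12 libraries together. Il1rn, the natural antagonist of interleukin-1, fell from 21.9 ± 3.64 to 7.12 ± 2.04 CPM in the cytoplasm (log2 change -1.63, FDR 0.000949) and from 24.1 ± 1.55 to 7.73 ± 2.02 CPM in the polysomes (-1.63, FDR 0.00179). The receptors Tlr2 and Tlr4 rose by 0.88 and 0.74 in the cytoplasm (FDR 0.0158 and 0.016).

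Of 29 other classical target genes of NF-κB 21 were tested, 10 were higher and 0 lower in the cytoplasm, with a median log2 change of 0.67, and 7 were higher and 0 lower in the polysomes. The complement factor gene Cfb rose by 1.63 (FDR 0.0188) and Cebpd by 1.58 (FDR 0.0403) in the cytoplasm, both from a mean under 4 CPM. Among abundant members of the list Irf1 rose from 59.0 ± 9.28 to 159 ± 19.9 CPM, and Ier3 from 215 ± 19.0 to 480.2 ± 64.4 CPM. Icam1, an adhesion molecule often used as a readout of the pathway, had a log2 change of 0.21 that did not pass (FDR 0.492).

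Of 12 genes for proteins that bind AU-rich elements 3 were higher and 0 lower in the cytoplasm, and they form a single family. Zfp36, which encodes tristetraprolin, rose from 118 ± 32.9 to 503 ± 18.3 CPM (log2 change 2.09, FDR 0.000507) and in the polysomes from 116 ± 45.0 to 600.1 ± 64.8 CPM (2.37, FDR 0.000511). Zfp36l1 rose by 1.43 (FDR 0.00172) and Zfp36l2 by 1.18 (FDR 0.00218) in the cytoplasm. The log2 changes of the other 9 lay between -0.38 and 0.62 and none passed.

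**Figure D5:**
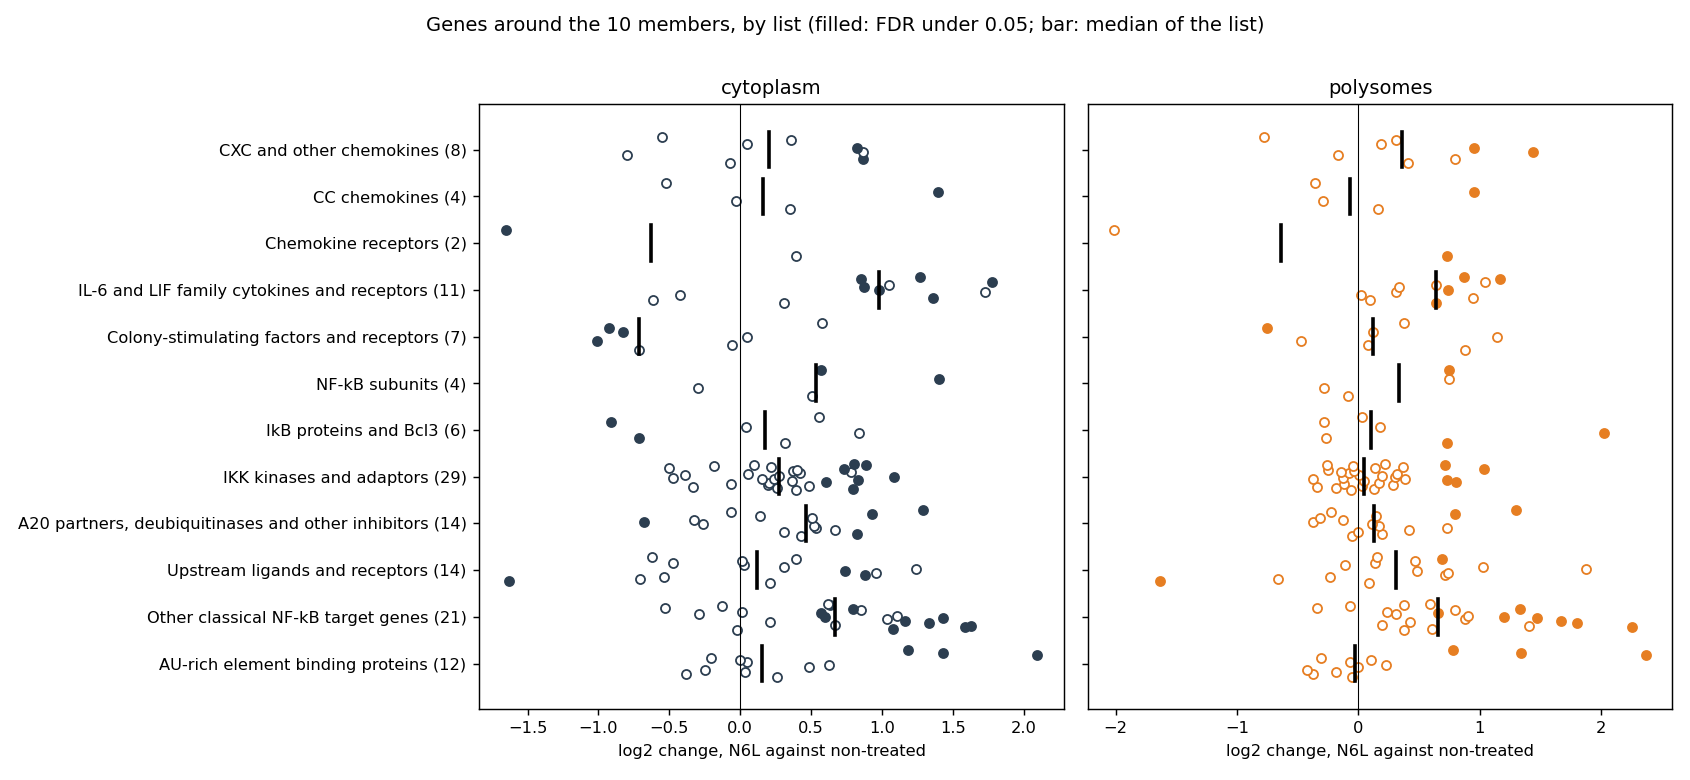
Log2 change between N6L and NT (horizontal axes) in the cytoplasm and in the polysomes for each tested gene of 12 lists around the 10 genes, with the number tested in brackets, filled where the FDR is under 0.05, and a black bar at the median of the list. The median of the family of Lif lies at 0.98 and that of other classical NF-κB target genes at 0.67 in the cytoplasm, and the colony-stimulating factors lie at -0.71.

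As a description, the genes whose log2 levels followed each member most closely over the 12 libraries were sought among those averaging 10 CPM or more. The 12 libraries fall into 2 treatments and 6 cultures, and both libraries of a culture share a lysate, so the correlations carry no test. Cxcl1 was closest to Cmtm6 (r = 0.983), then Cdkn1b and Dcun1d3, and Cxcl2 to Rassf3 (0.980), Pip5k1a and Spry2. Lif was closest to Ccn2 (0.990), Csrnp1 and Hbegf, and Csf1 to Tnfrsf10b (0.981), Cdh13 and Bcl9. Nfkbia was closest to Irak2 (0.988), a kinase of the interleukin-1 and Toll-like receptor complex, then Pex26 and Fdft1, and Tnfaip3 to Lpin1 (0.986), Arnt and Bcl6. Relb was closest to Uap1l1 (0.992), Flot1 and Cdk5rap3, Ccl2 to Maged1 (0.939), Gsn and Txnip, and Cxcl5 to Cat (0.938), Pdcl and Plscr4. For Ccl7 the closest, 9030622O22Rik, reached 0.873, followed by Gsap and Arl4a. Among the members themselves Cxcl1 and Cxcl2 were the closest pair (0.962), Cxcl1 and Nfkbia followed (0.922), and Relb had values from -0.32 with Cxcl5 to 0.60 with Nfkbia.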

How the data were processed

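Poly(A) RNA of the cytoplasm and of the pooled polysomal fractions of 6 mPDAC cultures was sequenced as stranded libraries. Per the labels and the study's methods, the authors used bcl2fastq 2.18.0.12, aligned reads with STAR to mm10 and deposited raw counts per gene made with HTSeq 0.5.3. No source used here states the annotation release, the strand setting or how reads with several matches were counted.

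The 4 technical replicates of each library were summed, and all rows named a gene. Counts of 12 libraries were fitted together with edgeR 4.0.16 in R 4.3.3 (filterByExpr, TMM scaling, 1 mean per group, quasi-likelihood test, Benjamini-Hochberg limit 0.05). DESeq2 1.42.0 was an alternative, and the fit was tested on simulated data. Simulated log2 changes of size 2 were recovered in 95% of cases in the cytoplasm, 91% in the polysomes and 75% for the TI. For changes of size 1 the shares were 46%, 49% and 18%, so a gene not called may still have changed. Contrasts were N6L against NT in each fraction, polysomes against cytoplasm in each treatment, and their interaction, the TI. Both libraries of a culture come from the same lysate, and their deviations from the group means correlated with r of 0.0368 to 0.645. The main fit did not model this pairing, and the culture as a replicate block was an alternative. A count of 0 allows 3 counts, for counting error only.

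The members and the gene lists were chosen with earlier results of these data known. Named besides the members were central genes of the lists, picked by role, and in each list up to 2 with the largest called cytoplasmic change and groups that did not overlap. Ackr3, Stat3, Socs3, Il6ra, Nfkbid, Tlr4, Irf1, Ier3, Zfp36l2, Krt7, Sox9 and Pecam1 were named after their values were seen. Alternatives were other scalings, filters and tools, offsets for length and GC content, blocks, technical replicates and leaving out each culture. The 3′ untranslated region of 1 gene is not reported here.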

Additional observations from a re-analysis of the deposited data

How the results depend on the processing

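Of the 10 genes, 7 were called between N6L and NT in the cytoplasm and 2 to 7 when a culture was left out, the fewest without N6L culture 2, when 9.24% of all genes were called in place of 28.3%. In the polysomes 6 were called, and 0 to 6 when a culture was left out, with 0 without N6L culture 2 and 1 without NT culture 1, when 1.04% and 1.44% of all genes were called in place of 9.67%. Between polysomes and cytoplasm of N6L cells 1 was called, and 0 to 3 when a culture was left out, 3 with DESeq2, 4 with the culture as a replicate block, 0 in the fit of only those groups and 3 at an FDR limit of 0.1. The counts in NT cells and for the TI were 0 under all alternatives run, with the replicate block or without it. NT and N6L cultures share only label numbers, and with these as a block 7 were called in each fraction (correlation of same-numbered deviations 0.00756 to 0.296).

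Between N6L and NT and for the TI, signs turned for values that passed no limit. The polysome-to-cytoplasm difference of Nfkbia in N6L cells, called with the block and with DESeq2, turned with the offsets, as given above. The cytoplasmic log2 change of Relb was 0.1248 with library totals, 0.0279 with no filter, 0.0008 with offsets and -0.1127 to 0.0673 when a culture was left out. The TI of Cxcl2 was 0.0385 with technical replicate a alone. When a culture was left out, the TI was -0.2422 to 0.2339 for Cxcl5, -0.2371 to 0.4177 for Ccl7 and -0.0018 to 0.1542 for Lif. The TI of Ccl7 was -0.0294 with library totals, -0.0311 with no filter, -0.0067 with at least 10 counts in every library, -0.046 with offsets and -0.0068 with block and offsets. The TI of Lif was -0.0367 with library totals, -0.0007 without the conflicting technical replicates, -0.0421 with offsets and -0.0476 with block and offsets. The TI of Nfkbia was -0.0903 with offsets and -0.0857 with block and offsets. The cause of these turns was not tested.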
